A study of Drosophila melanogaster with 9 samples.

Results

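The proteasome subunit genes of Drosophila melanogaster were followed through an RNA immunoprecipitation and sequencing (RIP-seq) experiment on the RNA-binding protein ORB2. The genes were taken by symbol alone, as those starting with Rpn or Rpt and a digit, with Prosalpha or with Prosbeta. This gave 33 of the 6440 genes listed: 7 of the alpha ring, 7 of the beta ring, 7 ATPases of the base, 4 other subunits of the base and 8 of the lid. The libraries came from extracts of wild type embryos collected 0 to 3 h after egg laying, and fell into 3 groups of 3. In ORB2 IP the RNA was captured with the synthetic antibody fragment (Fab) anti-orb2 E8. In control IP it was captured with a Fab against EGFR, C1. Input was RNA of the extract with no antibody in its labels. ORB2 belongs to the CPEB family of proteins that bind the 3′ untranslated region (3′UTR) of mRNAs.

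The proteasome degrades proteins tagged with ubiquitin. Its core, the 20S particle, is a barrel with outer rings of alpha subunits, which gate entry, and inner rings of beta subunits, which hold the proteolytic sites. The regulatory cap, the 19S particle, has a base, whose Rpt ATPases unfold substrates, and a lid, whose Rpn11 removes the ubiquitin chain. In fly embryos, several maternal proteins that repress mRNAs are destroyed through ubiquitin and the proteasome as control passes from the mother's transcripts to those of the embryo.

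Values are on either of the authors' scales. TPM is corrected for transcript length and was used to compare genes, and normalized counts were used to compare a gene between libraries. Normalized-count totals ran from 3952548 to 5368634 in ORB2 IP, from 3504705 to 3747319 in control IP and from 2625388 to 2856867 in input, and the number of reads behind them is unknown. Some libraries stood apart. In ORB2 IP replicate 2, 108 genes were listed at 0 and the lowest positive normalized count was 5.695. In the other libraries 0 to 14 genes were at 0 and the lowest positive value was 0.7004 to 1.728. Over all listed genes, the Spearman rho of ORB2 IP replicate 3 with control IP was 0.929 to 0.953, while that of ORB2 IP replicates 1 and 2 was 0.828 to 0.875. For input replicate 1 against the immunoprecipitates rho was 0.811 to 0.856, and for input replicates 2 and 3 it was 0.557 to 0.671. All 12 maternal marker mRNAs of the early embryo (among them bcd, nos and osk) were listed, none at 0, and their summed TPM was 1844.2 to 2741.7 in ORB2 IP, 1664.6 to 1925.3 in control IP and 3784 to 5446.4 in input. Of 12 early zygotic markers 11 were listed, at 287.6 to 444.1, 488.3 to 812.7 and 293.3 to 402.1 summed TPM in the same groups. Nothing in the labels says that replicates came from separate embryo collections, so p-values measure the spread between these libraries, which may be technical.

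In input, core subunit mRNAs were the more abundant ones. The median of the mean input TPM was 882.8 over the 7 alpha genes and 582.7 over the 7 beta genes. Over the base ATPases, without the paralog Rpt3R, it was 330.0, over the other base subunits 145.3 and over the lid 263.2. The highest was Prosbeta5, the subunit with the chymotrypsin-like site, at 1053.9, 1203.6 and 1404.2 TPM in input replicates 1 to 3. Prosalpha5 followed at 1092.1, 1087.4 and 1326.9 TPM and Prosalpha4 at 1007.9, 1119.6 and 1325.5 TPM. The ranges of these 3 overlapped, so their order was within the replicate spread. All 3 stood at percentiles 98.0 to 98.1 of the listed genes. Rpn12, a lid subunit, was the most abundant cap mRNA at 688.9, 810.6 and 891.7 TPM.

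The low end held the scaffold subunits and a few single genes. Among the latter was the core gene Prosalpha1, at a mean of 41.97 TPM, which is taken up below. Rpn1 and Rpn2, the large base subunits that dock ubiquitin-binding proteins and the lid, averaged 98.31 and 92.74 TPM. Rpt5 averaged 70.38 TPM. Rpn5, a lid scaffold subunit, was listed at 83.58, 60.93 and 20.57 TPM. Its input replicates differed by more, relative to their mean, than those of any other member. The coefficient of variation of its input normalized counts was 58.9%, against a median of 21% over the 31 members without Prosalpha1 and Rpt3R. As these are bulk extracts, fewer cells holding a transcript and less of it in each cell cannot be told apart.

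**Figure D1:**
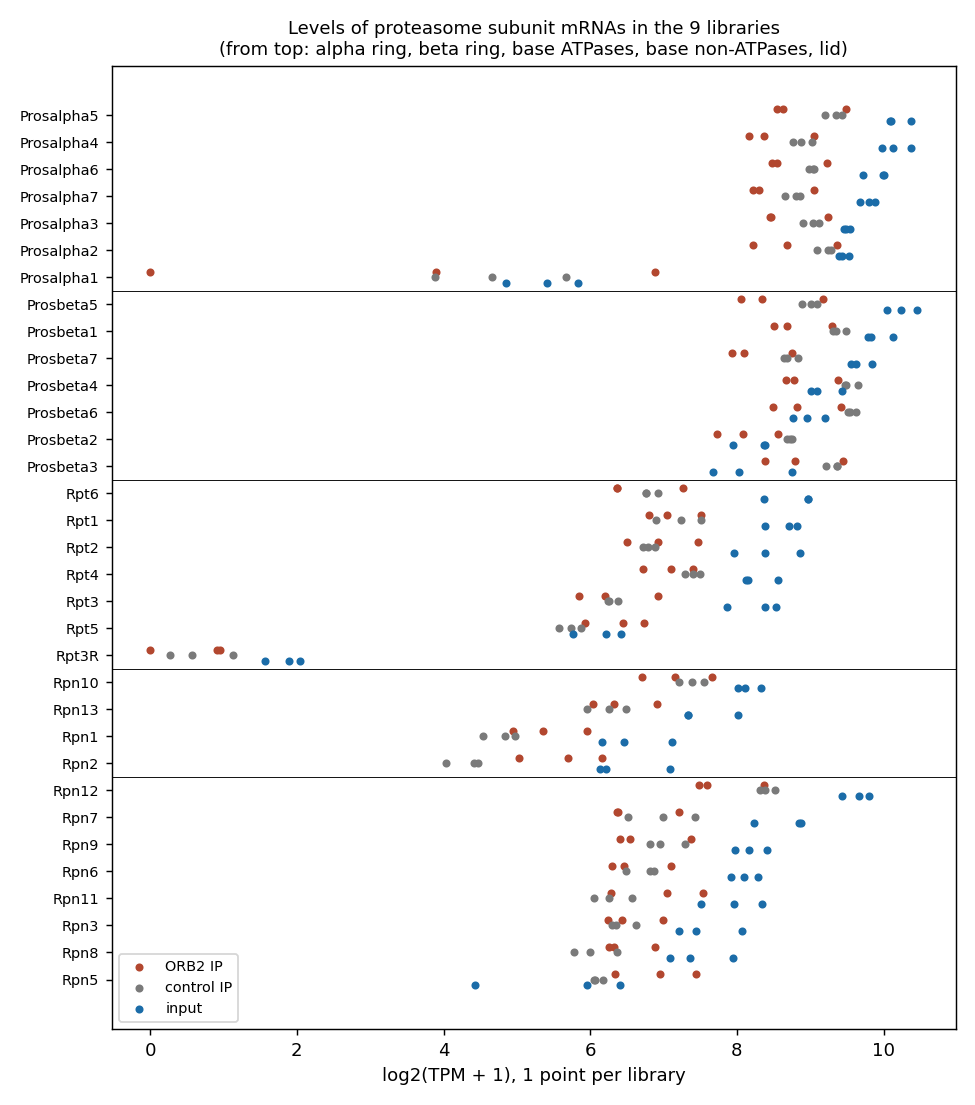
Levels of the 33 genes as log2(TPM + 1), with 1 point per library, coloured by group and ordered within each subcomplex by mean input level. Most core genes lie to the right of the cap genes, although Prosbeta2 and Prosbeta3 fall among them in input. Prosalpha1 lies to the left of the other core genes, among the lowest cap genes in input. Rpt3R stands apart at the left, and Rpn5 has the widest spread in input.

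Between ORB2 IP and control IP, the mRNAs of the 20S core were lower in ORB2 IP. Of the 33 members 32 passed the filter on low values, and 17 of them were called lower, 2 higher and 13 not. Of 14 core genes 13 were called lower and 0 higher by limma at a Benjamini-Hochberg adjusted p below 0.05, and in each of the 13 every ORB2 IP library lay below every control IP library. In this comparison limma called 21.6% of all 6318 tested genes lower and 20.8% higher. The groups did not overlap for 28.3% of genes on the lower side and 27.6% on the higher side. The median log2 fold change was −0.71 over the core genes and 0.00 over all tested genes. The 13 called changes were uniform, from −0.50 to −0.90. Without ORB2 IP replicate 2 limma called 5 core genes lower and without control IP replicate 1 it called 6. Without control IP replicate 3 it called 6, and with the trend on transcript length removed it called 0. Of all genes it called 1041, 967, 974 and 1152 lower in the same order, against 1366 in the fit reported. Without ORB2 IP replicate 3, the library nearest to control IP, it called 13 core genes and 1573 of all genes lower. In the TPM table, where the median of all genes was shifted by 0.24, the core median was −0.45. There it called 4 core genes and 712 of all genes lower, and in a fit of all 9 libraries 8 and 891.

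Beta ring genes made up the far end of the core. Prosbeta6, a structural beta subunit, had normalized counts of 1643, 1136 and 1663 in ORB2 IP, against 2821, 2553 and 2825 in control IP. All 3 ORB2 IP libraries were thus below control IP, and the level was 1.87-fold lower, a log2 fold change of −0.90 (SE 0.20; limma adjusted p 0.005306). Prosbeta2, which carries the trypsin-like site, had 1004.8, 751.4 and 1105.6 normalized counts in ORB2 IP, against 1806.5, 1572.5 and 1719.1 in control IP. It was 1.80-fold lower (−0.85, SE 0.19; limma adjusted p 0.005481). Prosbeta4, another structural subunit, had 1283.7, 1037.6 and 1299.3 in ORB2 IP, against 2489.3, 1978.5 and 2045.4 in control IP, again with no overlap between the groups (−0.85, SE 0.18; limma adjusted p 0.004924). The remaining beta genes, Prosbeta1 with the caspase-like site, Prosbeta5, Prosbeta7 and Prosbeta3, lay between −0.81 and −0.70, with limma adjusted p of 0.005871 to 0.0198.

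The alpha ring followed with smaller changes. Prosalpha2, Prosalpha5, Prosalpha4, Prosalpha3, Prosalpha6 and Prosalpha7 were called lower, with log2 fold changes of −0.70 to −0.50 and limma adjusted p of 0.01492 to 0.04485. Prosalpha7, the smallest of the called changes, averaged 1166 ± 174.6 normalized counts in ORB2 IP and 1648 ± 210.1 in control IP (SD, n = 3 each). In the ORB2 IP libraries the core genes were lowest in replicate 2: the median core TPM was 603.0, 314.8 and 352.4 in ORB2 IP replicates 1 to 3, against 520.5, 519.7 and 548.2 in control IP. On this scale the highest ORB2 IP library exceeded every control IP library.

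Prosalpha1 was the exception and could not be read on its own. Its normalized counts were 287.1, 0 and 52.13 in ORB2 IP, against 196.3, 48.53 and 88.83 in control IP. Input held 67.84, 115.3 and 108.3. The ORB2 IP values enclosed the whole range of control IP, and the log2 fold change of −1.95 had an SE of 1.46 (limma adjusted p 0.2967). It was 0.37 without ORB2 IP replicate 2, the library listed at 0, in which 108 genes in all were at 0. The gene has a neighbour on the same strand, CG30382, which the reference annotation names Prosalpha1R. In that annotation 1734 nt and no gene lie between them, and their coding lengths are the same, 732 nt. Reads of such copies may be divided between them by the counting. CG30382 had 1172.9, 1120.2 and 1173.5 normalized counts in ORB2 IP, against 1949, 1657 and 1654 in control IP. Prosalpha1 made up 19.7%, 0% and 4.25% of the sum of both in ORB2 IP, against 9.15%, 2.85% and 5.1% in control IP. Taken as a single gene, a choice made after seeing these values, the pair was at −0.56 (SE 0.18; limma adjusted p 0.02836), within the range of the other alpha genes.

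The cap genes did not move as a block. Of 18 tested, 4 were called lower, 2 higher and 12 were not called, when 21.6% of all tested genes were called lower and 20.8% higher. The cap genes thus were not called more often than genes at large. Their median log2 fold change was −0.17, with a range of −0.84 to 1.11. The groups did not overlap for 7 cap genes on the lower side and 3 on the higher side, and for 28.3% and 27.6% of all tested genes. No test of core genes against cap genes was made. The largest increase was that of Rpn2, the base scaffold. It had 687.9, 661.9 and 472.4 normalized counts in ORB2 IP, against 319.9, 295.1 and 226.2 in control IP. The lowest ORB2 IP library lay above the highest control IP library, and the level was 2.16-fold higher (1.11, SE 0.20; limma adjusted p 0.002639). Of the 19 members called in this comparison, Rpn2 alone kept its call and direction in every alternative run. The cap median was 0.08 in the TPM table and −0.53 at equal totals, where the median of all genes was −0.35.

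Rpn5 was the other cap gene called higher. It had 929.3, 868.7 and 656.8 normalized counts in ORB2 IP, against 611.9, 506.1 and 527.2 in control IP, with a log2 fold change of 0.57 (SE 0.18; limma adjusted p 0.0259). This call was lost at equal totals, in 1 fit of all 9 libraries and with no mean-variance trend. It was also lost without ORB2 IP replicate 1, ORB2 IP replicate 2, control IP replicate 2 or control IP replicate 3. Rpt5, an ATPase whose tail helps to open the core gate, had 469.5, 513.5 and 410.8 in ORB2 IP, against 335.7, 335.2 and 385.9 in control IP. Its groups did not overlap either, but at 0.40 (SE 0.17) it missed the threshold (limma adjusted p 0.07305). Rpn11, the deubiquitinase of the lid, had 591.7, 554.8 and 378.3 in ORB2 IP, against 336.8, 346.7 and 451.4 in control IP. Here ORB2 IP replicate 3 lay below control IP replicate 3, and the difference of 0.41 (SE 0.21) was not called (limma adjusted p 0.1252). Rpn1 at 0.40 and Rpn8, the partner of Rpn11, at 0.19 were not called. Without ORB2 IP replicate 3, limma called 5 cap genes higher and 2 lower, and 1493 of all genes higher and 1573 lower.

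On the lower side of the cap stood Rpn12, Rpn7, Rpt4 and Rpn10. Rpn12, which completes the lid, had 834.6, 600.2 and 751.0 normalized counts in ORB2 IP, against 1294, 1211 and 1387 in control IP (−0.84, SE 0.18; limma adjusted p 0.004525). Rpt4 was at −0.58 (limma adjusted p 0.01261). Rpn10, a ubiquitin receptor, was at −0.46 (limma adjusted p 0.0448) and Rpn7 at −0.59 (limma adjusted p 0.0459). ORB2 IP replicate 1 lay above the lowest control IP library for Rpn7. Rpn9 at −0.50 and Rpt6 at −0.41, like Rpn6 at −0.36 and Rpt1 at −0.34, did not overlap between the groups but were not called (limma adjusted p 0.05491 to 0.1308). With the replicate number as a block, the limma adjusted p was 0.037 for Rpn9 and 0.0457 for Rpt6. Rpn13, a ubiquitin receptor, was at −0.06, Rpt2 at −0.09, Rpn3 at −0.12, and Rpt3 at −0.22, none of them called.

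**Figure D2:**
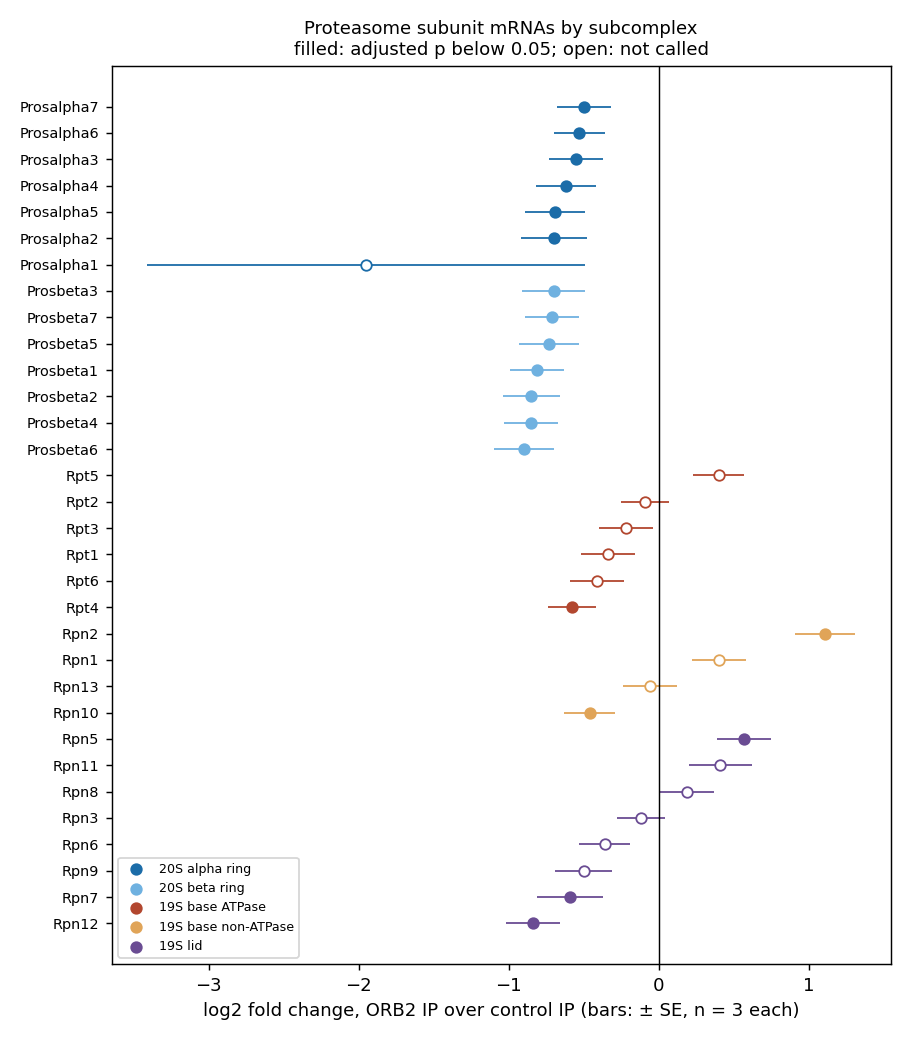
Log2 fold change of ORB2 IP over control IP for the 32 tested genes, with bars of ± SE (n = 3 libraries each), filled where called. The 13 called core genes lie between −0.90 and −0.50, Prosalpha1 has the wide bar of its SE of 1.46, and the cap genes spread from −0.84 for Rpn12 to 1.11 for Rpn2.

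Rpt3R, a paralog of the ATPase Rpt3, was the only member that failed the filter of a mean normalized count of 10. It had 3.601, 0 and 5.165 normalized counts in ORB2 IP, 1.265, 2.646 and 6.858 in control IP, while input had 10.34, 6.314 and 12.69. It was the least abundant member, at a mean of 2.588 TPM in input, and no test was made. The reference annotation has 14 further genes with such symbols, paralogs such as Prosalpha4T1 and Prosbeta5R1. They were not among the listed genes, so no values were available for them.

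Log2 fold changes of the members over control IP were higher for longer transcripts. Annotated transcripts of the core genes were 815 to 1215 nt long and those of the cap genes 995 to 3412 nt, while the median over all listed genes was 2010 nt. Rpn2 and Rpn1 had the longest, 3412 and 3041 nt. Rpn12, the lowest of the cap genes, had the shortest of its particle, 995 nt. Over the 32 tested members the Spearman rho of log2 fold change with length was 0.82. Over all 6272 tested genes with a length it was 0.53. Genes are not independent replicates, and these share their libraries.

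Other genes of the same length changed in the same direction. Below 1000 nt, limma called 49.6% of 921 genes lower, with a median log2 fold change of −0.67, and 9 of the 10 members there, with a median of −0.76. From 1000 to 1500 nt it called 36.3% of 1127 genes lower, with a median of −0.37, and 8 of 12 members, with a median of −0.55. From 1500 to 2000 nt it called 23.7% of 1042 genes lower and 12.8% higher, and 0 of 8 members lower and 1 higher. From 3000 nt up it called 42.3% of 1836 genes higher, with a median of 0.45, and of the members there, Rpn1 and Rpn2, it called Rpn2. With a smooth trend on length removed from each library, limma called 0 of 32 members lower, 5 of them lower at an unadjusted p below 0.05, when 18.4% of all genes were called lower. The median was then −0.25 over the core genes and −0.04 over the cap genes. Called higher after this step were Rpn2 at 0.79, Rpn11 at 0.78, Rpn5 at 0.58, Rpt5 at 0.56 and Rpn8 at 0.45, with limma adjusted p of 0.00471 to 0.0469, when 17.4% of all genes were called higher. The 3′UTRs of the members as a whole were short. The median 3′UTR was 118 nt over the members, with a range of 60 to 320 nt, and 310 nt over all 6387 listed genes with a 3′UTR.

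**Figure D3:**
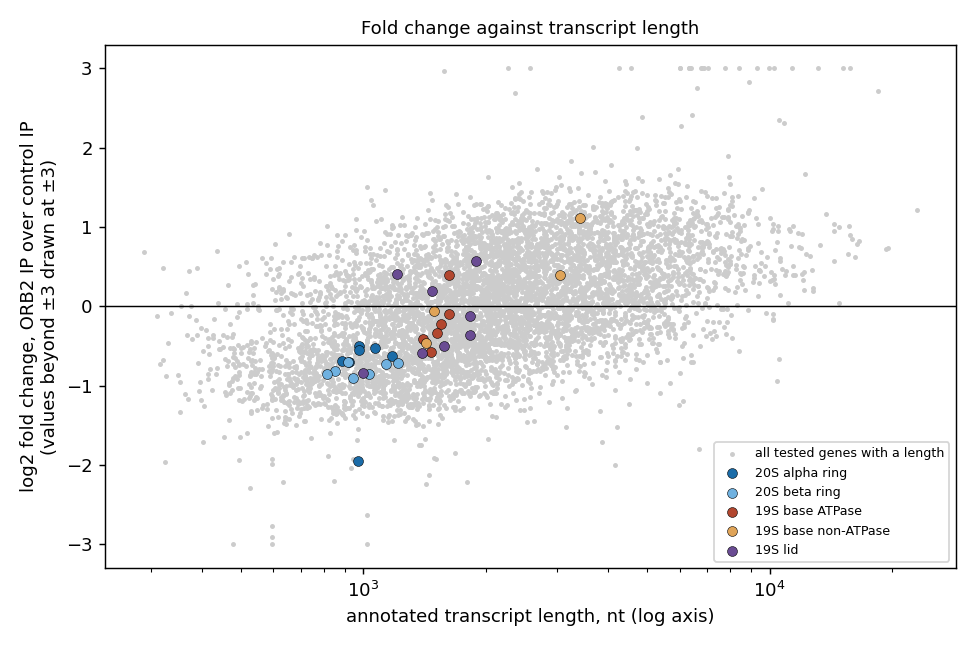
Log2 fold change of ORB2 IP over control IP against annotated transcript length on a log axis, for all tested genes with a length (grey) and the members by subcomplex. Core genes cluster at 815 to 1215 nt within the cloud of short genes below 0, and Rpn2 lies at 3412 nt and 1.11.

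Against input, most members were lower in ORB2 IP, the cap genes among them. Limma called 20 of 32 tested members lower and 3 higher, with a median log2 fold change of −0.77. Of all 6344 tested genes it called 25.1% lower and 26% higher, with a median of −0.03. The groups did not overlap for 21 members on the lower side and 3 on the higher side, and for 32.1% and 30% of all tested genes. By particle, 13 of 18 cap genes were lower and 2 higher, and 7 of 14 core genes were lower and 1 higher. Without input replicate 1, the input nearest to the immunoprecipitates, limma called 22 members lower and 3 higher. The number lower was 12 without ORB2 IP replicate 2 and 12 without input replicate 3, with 3 core genes lower in either case. The number higher was 1 without input replicate 2, 1 without input replicate 3 and 0 at equal totals, where the median of all genes was −0.81.

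Rpt6, Rpn7 and Rpt3 had the largest called decreases. Rpt6, an ATPase, had 586.0, 410.8 and 475.2 normalized counts in ORB2 IP, against 1254.9, 1602.5 and 2024 in input. It was 3.28-fold lower (−1.72, SE 0.25; limma adjusted p 0.002079). Rpn7, of the lid, had 554.1, 402.9 and 471.1 in ORB2 IP, against 1116, 1447 and 1867 in input (−1.61, SE 0.25; limma adjusted p 0.002401). Rpt3 was at −1.55, Rpn12 at −1.42, Prosbeta5 at −1.32 and Prosalpha4 at −1.24, none of them overlapping between the groups. Rpn2, higher than in control IP, was not called against input (−0.47, SE 0.26; limma adjusted p 0.1537), with values inside or below the input range of 674.8 to 1109 normalized counts. Prosalpha1 was at −1.95 with an SE of 1.55 (limma adjusted p 0.314), and at 0.37 without ORB2 IP replicate 2.

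Rpn5, Prosbeta3 and Rpt5 were the members higher than input. Rpn5 had 929.3, 868.7 and 656.8 normalized counts in ORB2 IP, against 445.6, 273.9 and 117.2 in input, so that the groups were apart although the inputs differed among themselves. It was 3.32-fold higher (1.73, SE 0.41; limma adjusted p 0.007209). Prosbeta3, a structural beta subunit, had 1589, 1010 and 1552 in ORB2 IP, against 974.7, 500.9 and 494.1 in input (1.12, SE 0.31; limma adjusted p 0.01347). The call of Prosbeta3 was lost without input replicate 2, without input replicate 3 and at equal totals. Rpt5 had 327.3, 315.7 and 253.6 normalized counts in input, all below its ORB2 IP values given above (0.64, SE 0.22; limma adjusted p 0.03378). The call of Rpt5 was lost without ORB2 IP replicate 1, ORB2 IP replicate 2, input replicate 2 or input replicate 3 and in the TPM table, and at equal totals Rpt5 was at −0.14. The call of Rpn5 was lost at equal totals.

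Cap genes were mostly lower in control IP than in input, while core genes went either way. In control IP against input, limma called 13 of 18 cap genes lower and 1 higher, and 2 of 14 core genes lower and 4 higher. In all it called 15 members lower and 5 higher, where it called 32.3% of 6355 genes lower and 33.5% higher. The groups did not overlap for 19 members on the lower side and 7 on the higher side, and for 37.1% and 36.1% of all tested genes. The median log2 fold change was −0.75 over the cap genes, 0.06 over the core genes and 0.01 over all tested genes. The core median was −0.36 at equal totals and −0.58 in the TPM table, where the medians of all genes were −0.41 and −0.60. In these settings all genes were shifted, and the core stayed near their median. Removal of the length trend put the core at −0.55 and all genes at −0.05. Leaving out control IP replicate 1 put the core at −0.08, against 0.01 over all genes. Leaving out input replicate 1 put the core at −0.06, against 0 over all genes. The direction of the core median was thus not settled. In the TPM table limma called 25 members lower and 3 higher, when it called 3193 of all genes lower and 1173 higher. Without control IP replicate 2 it called 9 members lower, with 0 core genes among them, and it also called 0 core genes lower without control IP replicate 3 or without input replicate 3. Without input replicate 1 it called 16 lower and 5 higher.

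All 4 core genes higher in control IP were of the beta ring. Prosbeta3 had 2434, 1941 and 2251 normalized counts in control IP, against 974.7, 500.9 and 494.1 in input. It was 3.53-fold higher (1.82, SE 0.27; limma adjusted p 0.000509). Prosbeta6 had 2821, 2553 and 2825 in control IP, against 1403, 998.0 and 1103 in input (1.24, SE 0.19; limma adjusted p 0.000575). Prosbeta2 was at 1.14 and Prosbeta4 at 1.01. Of 923 genes with transcripts below 1000 nt, limma called 61.8% higher in control IP, with a median log2 fold change of 0.93. With the length trend removed, Prosbeta3 was at 1.15, Prosbeta2 at 0.67 and Prosbeta6 at 0.62, all still called, and Prosbeta4 at 0.18 was not (limma adjusted p 0.321). Prosbeta4 was not called in the TPM table either. Prosbeta1, Prosbeta5 and Prosbeta7, the remaining beta genes, were at 0.13, −0.60 and −0.30, and of these Prosbeta5 was called lower (limma adjusted p 0.02711). Rpn5 was the cap gene called higher, at 1.17 (SE 0.40; limma adjusted p 0.02817). Its call was lost at equal totals and in the TPM table. The call was also lost without control IP replicate 1, control IP replicate 3, input replicate 2 or input replicate 3.

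The decreases in control IP were led by Rpn2. It had 319.9, 295.1 and 226.2 normalized counts in control IP, against 674.8, 1109 and 763.0 in input, a 2.98-fold lower level (−1.58, SE 0.24; limma adjusted p 0.000533). Rpt3 had 470.2, 418.0 and 480.2 in control IP, against 897.6, 1201 and 1379 in input (−1.32, SE 0.21; limma adjusted p 0.000592). Rpt6 had 659.6, 589.5 and 687.1 in control IP, against 1254.9, 1602.5 and 2024 in input (−1.31, SE 0.21; limma adjusted p 0.000695). Rpn1 was at −1.17 and Rpn7 at −1.02. The comparisons share libraries in pairs, so the values of a gene in them are not independent.

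**Figure D4:**
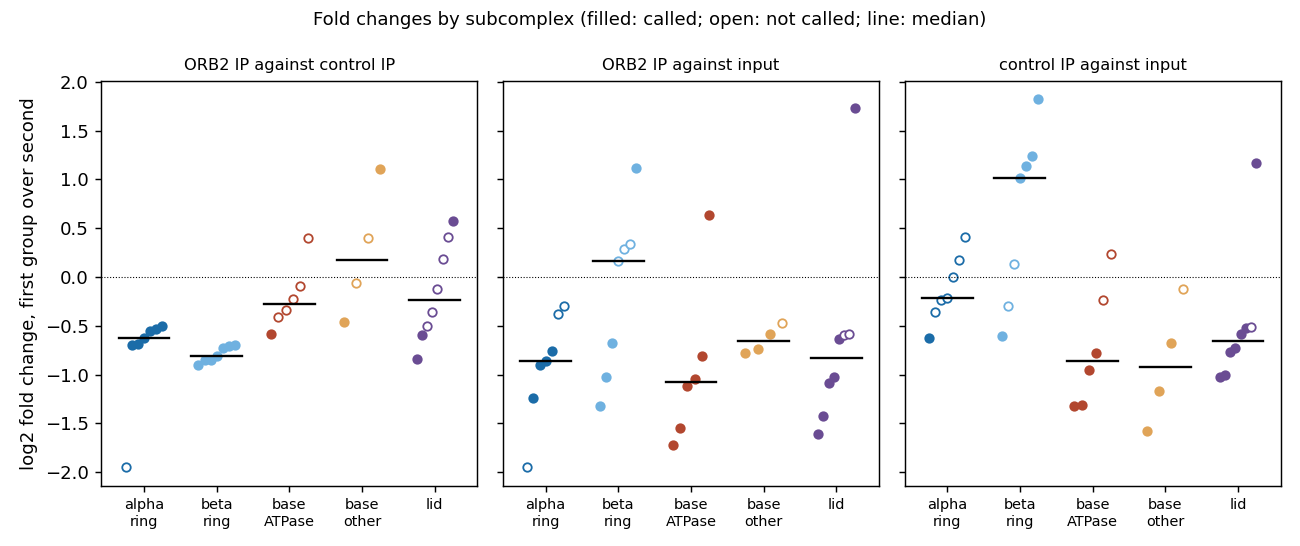
Log2 fold changes of the 32 tested genes by subcomplex in the 3 comparisons, first group over second, with filled points for called genes and a line at the median. The beta ring lies below 0 throughout in ORB2 IP against control IP (median −0.81) and has a median of 1.01 in control IP against input; Rpn5 is the highest lid gene in each panel.

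The ratio of core to cap mRNA was highest in control IP. Summed TPM of the core genes was 2.85, 2.34 and 3.20 times that of the cap genes in ORB2 IP replicates 1 to 3. It was 4.34, 3.62 and 3.43 times in control IP and 2.43, 1.72 and 2.16 times in input. All ORB2 IP libraries lay below all control IP libraries, and ORB2 IP replicate 2 lay within the input range. All members together held 1.06%, 0.597% and 0.629% of TPM in ORB2 IP, 0.927%, 0.894% and 0.980% in control IP, while inputs held 1.40%, 1.60% and 1.60%. These sums were not tested.

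**Figure D5:**
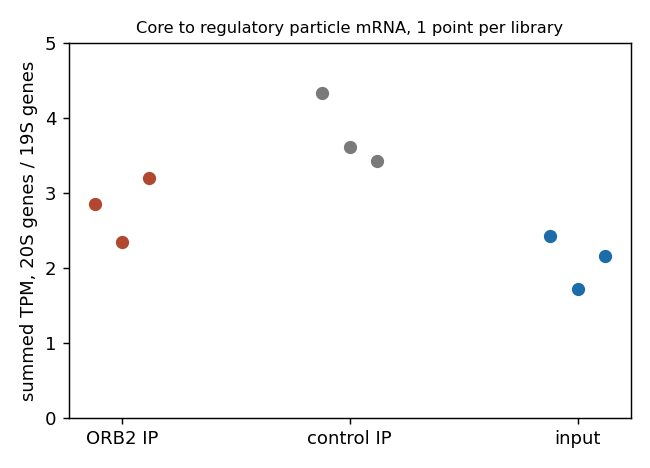
Summed TPM of the 14 core genes divided by that of the 19 cap genes, with 1 point per library. The ORB2 IP libraries lie at 2.34 to 3.20, the control IP libraries at 3.43 to 4.34 and the inputs at 1.72 to 2.43.

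Other genes of the ubiquitin system were read from lists in the same comparison of ORB2 IP with control IP. Of all 6318 tested genes, 21.6% were called lower and 20.8% higher there, with shares that differed by transcript length as given above. Whether a list differed from other genes of its lengths was not tested. Of 7 listed genes for assembly and activation of the proteasome, 1 was called lower and 1 higher. Pomp, the chaperone that matures the core, was at −1.24 (SE 0.19; limma adjusted p 0.00138) and CG8858 at 1.11 (SE 0.34; limma adjusted p 0.02191). Their transcripts were 1092 and 5896 nt long. Of 7 genes in a list of proteasome-bound deubiquitinases, shuttle factors and other proteins that join the cap, 2 were lower and 1 higher. The list also held Sem1, a small lid subunit whose symbol lies outside the rule for members, at −0.40, and the thioredoxin-like Txl at −0.42, neither of them called. The called genes were Rad23, which carries ubiquitinated proteins to the proteasome, at −1.15 (SE 0.19; limma adjusted p 0.00169), the deubiquitinase Uch-L5 at −0.56 and the deubiquitinase Usp14 at 0.47. Of 7 genes of the p97 segregase, 3 were higher and 0 lower: Npl4 at 0.93, casp at 0.66 and Plap at 0.53. The ATPase itself, TER94, was at 0.17 and was not called (limma adjusted p 0.4639).

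Among 18 genes of ubiquitin, E1 and E2 enzymes, 9 were lower and 2 higher, with a median log2 fold change of −0.47. The single E1 enzyme, Uba1, was higher at 0.96 (SE 0.21; limma adjusted p 0.005413), as was the E2 enzyme vih at 0.49. The E2 enzyme ben at −1.12 and the ubiquitin-like modifier Nedd8 at −0.94 were lower. Transcripts of Uba1 and vih were 4343 and 1464 nt long, and those of ben and Nedd8 2003 and 612 nt. In the COP9 signalosome, which removes Nedd8 from cullins and resembles the lid, 5 of 7 genes were lower and 0 higher, with a median of −0.69. Its largest decreases were CSN8 at −1.31, CSN7 at −1.04 and CSN6 at −0.85. Transcripts of the 7 genes were 641 to 1802 nt long, lengths at which many other genes were also called lower.

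The ligases were mixed. Of 18 cullin ligase genes, 6 were lower and 5 higher. The adaptor SkpA was at −1.36 (SE 0.23; limma adjusted p 0.001848), the RING subunit Roc2 at −1.09 and EloC at −0.90. The substrate receptors slmb and rdx were at 1.19 and 1.09 and the scaffold Cul4 at 0.82. Transcripts of SkpA, Roc2 and EloC were 1544, 758 and 654 nt long, and those of slmb, rdx and Cul4 3492, 3856 and 3405 nt. Of 15 genes of the anaphase-promoting complex, 6 were higher and 2 lower, led by ida at 1.26, APC7 at 0.78 and fzr, which activates the complex, at 0.67. The genes called lower were lmgA at −0.84 and lmgB at −0.57, which share an annotated transcript of 3507 nt. Transcripts of ida, APC7 and fzr were 2408, 2242 and 2610 nt long. Of 7 genes of the CTLH ligase, which in fly embryos targets maternal repressor proteins for destruction, 3 were lower and 2 higher. CG3295, CG6617 and CG31357 (Sou, Hou and Kaz in the reference) were at −1.03, −0.94 and −0.88, and RanBPM and muskelin were at 0.95 and 0.47. Transcripts of CG3295, CG6617 and CG31357 were 1853, 989 and 1681 nt long, and those of RanBPM and muskelin 4372 and 3018 nt.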

How the data were processed

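The authors deposited a TPM table and a table of normalized counts. The normalized counts are a signal that the authors scaled between libraries before deposit, per the table's name, by a method the labels do not give. The submitters' processing notes name DESeq2 1.42.1, Salmon 1.9.1 and Trim Galore 0.6.5 with no roles. Build, annotation and strand use in counting were not stated in the labels. Exons of 14 members overlap genes on the opposite strand, so their reads may mix. Whole reads could not be recovered (1.6% to 73.1% of low values per library lay within 0.05 steps of a multiple), so no count model was run. Names and lengths came from Ensembl release 115, which holds 6394 of the listed genes, using the transcript with the longest 3′UTR.

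Each of 3 comparisons was fitted over all genes on its 6 libraries with limma 3.58.1 in R 4.3.3 (limma-trend, two-sided), on log2(normalized count + 1), so folds of low genes are understated. Tested genes had a mean normalized count of 10 or more. Calls had a Benjamini-Hochberg adjusted p below 0.05 over all tested genes. Errors of fold changes are SE. The script was tested on simulated data. Figures used matplotlib 3.10.9. Same-numbered libraries of ORB2 IP and control IP deviated together (r over genes 0.10, 0.23 and 0.28), which is taken from the data and not from the labels; the fit reported has no block, and blocked values are given where a call changed. Members, lists and tests were chosen with earlier results of these data known. Members with the largest or smallest changes or levels were given by library, and up to 3 called genes in either direction of each other list were named. A called gene of these lists is not reported here.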

Additional observations from a re-analysis of the deposited data

How the results depend on the processing

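Alternatives were a pseudocount of 10, no filter, equal totals, the TPM table, all 9 libraries in 1 fit, no mean-variance trend, a replicate block, removal of the length trend and leaving out each library; lengths were found for 6394 genes. The cause of each change was not tested.

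For ORB2 IP against control IP, members called higher and lower were 2 and 17 with a median log2 fold change of −0.52. Of all genes 1316 were higher and 1366 lower. The number of members higher was 1 at equal totals, 1 in 1 fit of 9 libraries and 1 with no trend. Of all genes 383, 890 and 1246 were higher there. It was 4 members in the TPM table and 5 with the length trend removed, and 1356 and 1093 of all genes. The number of members lower was 5 in the TPM table, 10 in 1 fit of 9 libraries and 0 with the length trend removed. Of all genes 712, 891 and 1152 were lower there. The median was −0.87 at equal totals, −0.26 in the TPM table and −0.17 with the length trend removed. Over all genes it was −0.35, 0.24 and −0.01. Leaving out a library gave 1 to 5 higher and 7 to 20 lower, and 717 to 1493 and 967 to 1573 of all genes. Against input, ORB2 IP had 3 higher and 20 lower. At equal totals 0 were higher. The median was −1.55 at equal totals and −1.16 in the TPM table, and over all genes −0.81 and −0.42. Leaving out a library gave 1 to 3 higher and 12 to 22 lower, and 1120 to 1862 and 891 to 1816 of all genes. For control IP against input the median was −0.86 at equal totals, −1.16 in the TPM table and −0.63 with the length trend removed. Over all genes it was −0.41, −0.60 and −0.05. The TPM table gave 3 higher and 25 lower, and 1173 and 3193 of all genes. Leaving out a library gave 4 to 5 higher and 9 to 16 lower, and 1757 to 2364 and 1714 to 2259 of all genes.

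Some log2 fold changes changed sign, in part in settings where the median of all genes was itself shifted. Between ORB2 IP and control IP that median was −0.35 at equal totals, 0.24 in TPM and −0.01 with the length trend removed. The members that changed sign there were Rpn8 at −0.16 (equal totals), and Rpt3 at 0.03 and Rpn3 at 0.13 (TPM). Rpt2 was at 0.16 (TPM) and 0.08 (length trend), and Rpn13 at 0.20 (TPM) and 0.19 (length trend). Leaving out a library put Rpt2 at −0.17 to 0.01, Rpn13 at −0.15 to 0.07 and Prosalpha1 at −3.72 to 0.37. Between ORB2 IP and input, the median of all genes was −0.81 at equal totals and −0.42 in TPM. These settings gave −0.44 and −0.06 for Prosbeta6, −0.49 and −0.11 for Prosbeta2 and −0.62 and −0.23 for Prosbeta4. Prosbeta4 was also at −0.13 (length trend) and, without a library, at −0.02 to 0.32. Rpt5 was at −0.14 (equal totals). Prosalpha1 was at −3.71 to 0.37 without a library and at 0.12 summed with CG30382. Between control IP and input, the median of all genes was −0.41 at equal totals, −0.60 in TPM and −0.05 with the length trend removed. In this order Prosalpha3 was at −0.25, −0.48 and −0.40, and Prosalpha2 at −0.02, −0.25 and −0.25. Prosbeta1 was at −0.30, −0.53 and −0.65 and Prosalpha1 at −0.42, −0.63 and −0.57. Rpt5 was at −0.18 and −0.40 at equal totals and in TPM. Without a library, Prosbeta1 was at −0.04 to 0.30 and Prosalpha1 at −0.52 to 0.48.

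Same-numbered libraries correlated at −0.19, 0.09 and 0.18 (ORB2 IP and input) and at 0.04, 0.18 and 0.18 (control IP and input), so blocked values for these are given here alone. The replicate block gave 3 higher and 18 lower for ORB2 IP against input, where Rpn10 and Rpn3 lost their calls (limma adjusted p 0.064 and 0.0619), and 5 and 15 for control IP against input. Between ORB2 IP and control IP it gave 2 and 19, and there it changed no member's call other than those of Rpn9 and Rpt6.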
